A study of Homo sapiens with 3 samples.

Results

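The miR-221 and miR-222 cluster was followed through its 4 mature arms, hsa-miR-221-3p, hsa-miR-221-5p, hsa-miR-222-3p and hsa-miR-222-5p (below without the species prefix), which were chosen by name as all arms of the MIR221 and MIR222 hairpins out of 2588 human miRNAs listed in each library. Small RNA was counted in SK-MEL-2, an established NRAS-mutant human melanoma line grown in RPMI-1640 with serum. The control received no treatment, and the other cultures were treated for 3 min or 5 min with a plasma jet, which blows weakly ionised, nonthermal gas onto the cells. RNA was collected on Day 2, and each group was 1 library of 1 cell line. With no replicate there was no significance test, every interval below is an exact 95% counting interval, and each ratio compares libraries rather than conditions.

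MicroRNAs guide Argonaute proteins to messenger RNAs, mostly through the seed, bases 2 to 8 from their 5′ end. MIR221 and MIR222 lie on the X chromosome and are cut from a shared primary transcript, MIR222HG; in both hairpins the 3p arm is the usual guide and the 5p arm the usual passenger. The cluster is best known for repressing the cell-cycle inhibitor CDKN1B (p27) and the receptor tyrosine kinase KIT, and in melanoma it has been described as rising with loss of the repressor ZBTB16 (PLZF).

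The mature sequences are shown because the guide arms share their seed while the rest differs; capitals mark the seed.
miR-221-3p: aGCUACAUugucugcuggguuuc
miR-222-3p: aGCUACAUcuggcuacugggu
miR-222-5p: cUCAGUAGccaguguagauccu
The RefSeq table (GRCh38) matched 3 of the 4 members. miR-221-3p has 23 bases and miR-222-3p 21. Their first 8 bases are identical, the longest run of bases they share is also 8 long, and 11 of 21 positions are identical when both are aligned from the 5′ end. No other miRNA among the 2281 listed ones with a sequence in that table carried the seed GCUACAU, and none shared the seed of miR-222-5p.

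The hairpins show where the arms sit; capitals mark the mature arms found in the table.
MIR221: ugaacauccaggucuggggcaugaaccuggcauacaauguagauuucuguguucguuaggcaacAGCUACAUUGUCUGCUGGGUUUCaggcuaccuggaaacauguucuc
MIR222: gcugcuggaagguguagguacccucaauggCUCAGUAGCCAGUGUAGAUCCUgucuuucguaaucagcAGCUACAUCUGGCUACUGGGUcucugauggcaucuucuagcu
On GRCh38 MIR221 spans chrX:45746157-45746266 and MIR222 chrX:45747015-45747124, both on the minus strand and 748 bases apart. Both lie inside MIR222HG (chrX:45745214-45770267 in RefSeq), a long noncoding RNA; in GENCODE neither overlaps one of its exons, so both are intronic there.

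Sites for the shared seed, ATGTAGC, were searched on the mRNA strand of the longest annotated 3′ UTR of each coding gene (GENCODE, GRCh38), because the best-known targets of the cluster carry it. Capitals mark the match.
CDKN1B, first site: aaagcgttggATGTAGCattatgcaat
CDKN1B, other site: tttaccttttATGTAGCacataaactt
KIT, first site: ttggattcttATGTAGCaggaaataaa
KIT, other site: aaatattgaaATGTAGCaataatgtct
The 2 CDKN1B matches lie at chr12:12721228-12721234 and chr12:12721301-12721307, and the 2 KIT matches at chr4:54739587-54739593 and chr4:54740516-54740522, all on the plus strand. Of 19113 such UTRs, 7.99% held the heptamer at least once, against 6.20% of 1209 other UTRs within 10% of the length of that of CDKN1B and 9.73% of 1172 near that of KIT. Other reported targets had 1 match each in the cell-cycle inhibitor CDKN1C, the apoptosis gene BBC3 and the protease inhibitor TIMP3, and 0 in FOXO3. A match is a description of sequence; mRNA levels were not analysed here.

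Library totals were 615645 to 1045482 counts, with the 5 min library the shallowest. Averaged over libraries, 231 miRNAs reached 20 counts or more, including all 4 members, and 58 of these reached 1000 and are called abundant below. TMM factors, which scale libraries to each other, were 0.991 to 1.008. Of the fixed melanocytic markers, miR-204-5p had 2608 counts in the control, 2535 at 3 min and 1257 at 5 min and miR-211-5p 128, 97 and 65, while miR-514a-3p, miR-508-3p and miR-509-3p were at 0 in every library.

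hsa-miR-221-3p, the leading guide, was higher after both exposures. Untreated cells gave 23127 counts of it, the 3 min library 29736 and the shallower 5 min library 20382. As CPM, counts scaled to library size with the TMM factors, these were 22110, 31023 and 32833. The ratio to control was 1.40 at 3 min (interval 1.38 to 1.43) and 1.48 at 5 min (interval 1.46 to 1.51). The step from 3 to 5 min was 1.06-fold (1.04 to 1.08). Its place among the most abundant miRNAs went from rank 9 in the control to rank 6 in each plasma library.

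miR-221-3p gained more of the library than any other of the 2588 listed miRNAs at either exposure. Its share of counts was 0.863 percentage points higher after 3 min and 1.099 points after 5 min. The next gain was that of miR-29a-3p, a repressor of collagen mRNAs, at 0.298 and 0.702 points. Share points weigh abundant miRNAs more than scarce ones. Among the 58 abundant miRNAs, the ratio of miR-221-3p ranked 1 after 3 min and 3 after 5 min. Over all 231 miRNAs it ranked 24 and 41.

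hsa-miR-222-3p, the guide with the same seed, lay above control at 3 min and below it at 5 min. Its counts were 4738 in the control, 5658 at 3 min and 2219 at 5 min, or 4530, 5903 and 3575 scaled CPM. The 3 min library was the highest and the 5 min library the lowest, and the 3 counting intervals did not overlap. The log2 ratio of miR-222-3p to control was 0.38 at 3 min (interval 0.33 to 0.44), a 1.30-fold higher level. At 5 min it was -0.34 (interval -0.42 to -0.27), a 1.27-fold lower level. Between the plasma libraries it was 1.65-fold lower at 5 min (1.57 to 1.74). That ranked 3 from the bottom of the 58 abundant miRNAs and 13 from the bottom of all 231.

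The passenger arms were lowest in the 5 min library. hsa-miR-221-5p had 673 counts in the control, 710 at 3 min and 342 at 5 min, or 643, 741 and 551 scaled CPM. Its ratio to control was 1.15 at 3 min (interval 1.03 to 1.28), and at 5 min it was 1.17-fold lower (interval 1.02 to 1.33). hsa-miR-222-5p had 195, 185 and 67 counts, or 186, 193 and 108 scaled CPM. The control and 3 min values of miR-222-5p lay within each other's intervals, and the 5 min value was 1.73-fold below control (1.30 to 2.32).

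In each library the order of levels was miR-221-3p, miR-222-3p, miR-221-5p and miR-222-5p, with no overlap of counting intervals between neighbours. Adapter ligation favours some RNA ends, so this order is one of reads and not of molecules; the ratio of 1 arm between libraries is less affected.

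**Figure D1:**
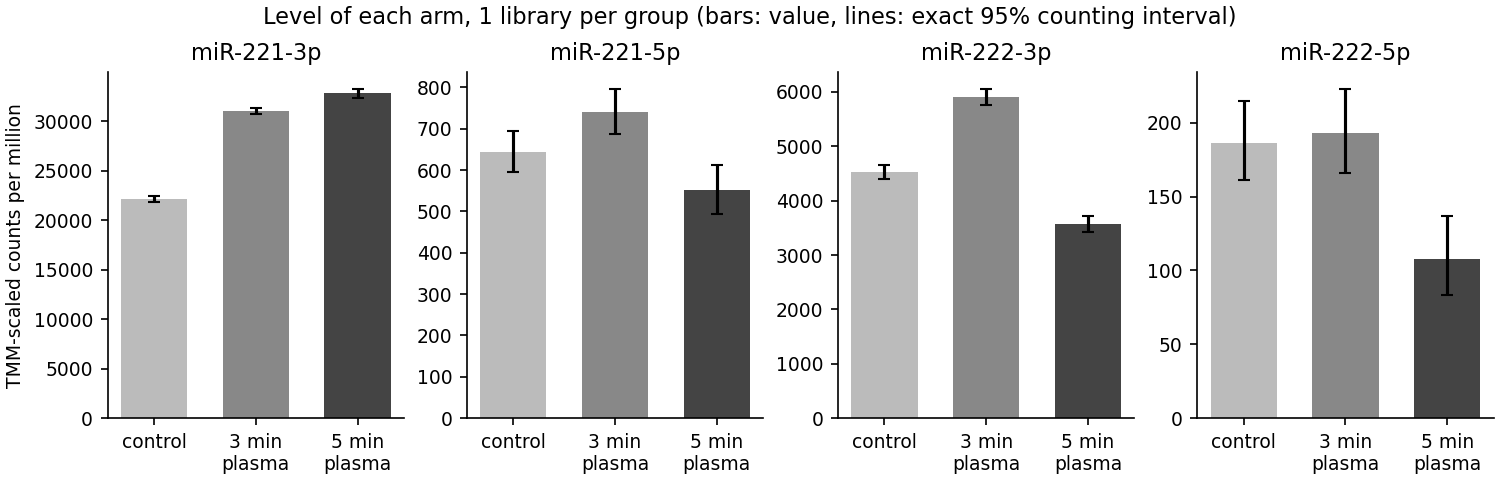
TMM-scaled CPM of each arm (y axis, from 0, separate scale for each panel) in the control, 3 min and 5 min libraries (x axis); bars are single libraries and lines exact 95% counting intervals. miR-221-3p goes from 22110 to 32833, while miR-222-3p, miR-221-5p and miR-222-5p are lowest after 5 min.

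Over all 231 miRNAs, differences of this size were common. The size used for counting was a log2 ratio of 0.322 or more in size, and miRNAs past it are called higher or lower by that size. At 3 min, 2 of 4 members were higher by that size, against 18.2% of the 231 miRNAs, and 0 were lower, against 10.8%. At 5 min 1 member was higher (background 28.1%) and 2 were lower (background 21.2%). Between 5 and 3 min 0 were higher and 3 were lower, with 20.8% of miRNAs in each direction. The median log2 ratio of the 4 members was 0.29 at 3 min, -0.28 at 5 min and -0.58 between 5 and 3 min, beside 0.05, 0.05 and 0.02 over all miRNAs. The members are arms of 2 neighbouring hairpins and not independent, and both plasma ratios share the control library.

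Scaling with TMM over all listed miRNAs moved these counts. With it, the median log2 ratio of the 231 shifted by -0.17 at 5 min and by -0.11 between 5 and 3 min. The 65 higher and 49 lower miRNAs at 5 min became 49 and 78, and the 48 and 48 between 5 and 3 min became 41 and 62. miR-221-5p then also passed the size at 5 min, 1.31-fold lower, and miR-221-3p between 5 and 3 min changed sign, at 1.02-fold lower. Distances from the median of the 231 are the same in every scaling: miR-221-3p stood at 0.44 on the log2 scale after 3 min and 0.52 after 5 min, and miR-222-3p at 0.33 and -0.39.

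**Figure D2:**
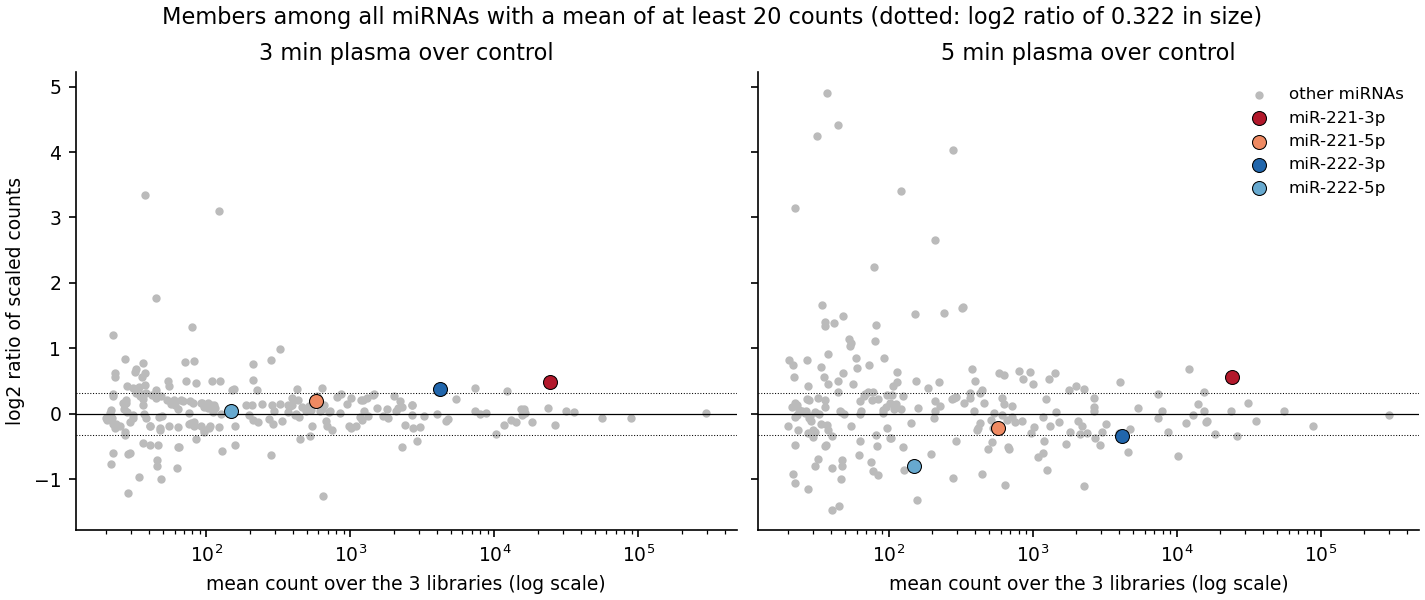
log2 ratio of scaled counts to control (y axis) against the mean count over the 3 libraries (x axis, log scale) for 3 min (left) and 5 min (right); each point is 1 of 231 miRNAs, and dotted lines mark the size used for counting, 0.322. Both guide arms lie above 0 after 3 min, at 0.49 and 0.38, and on opposite sides after 5 min, at 0.57 and -0.34.

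The opposite course of miR-222-3p was uncommon at the size used for counting. It and miR-139-5p were the 2 of 231 miRNAs that were higher by that size at 3 min and lower by it at 5 min, and miR-222-3p was the 1 such miRNA among the 58 abundant ones. The name of miR-139-5p was chosen from the data, and its intervals included 0 at both exposures (-0.29 to 1.03 and -1.69 to 0.23). The log2 ratios of miR-222-3p, 0.38 and -0.34, lay just past the size, which was chosen with earlier results of these data known. At 1.5-fold it was neither higher at 3 min nor lower at 5 min. At smaller sizes the course was shared, for example by the abundant miR-128-3p (0.22 and -0.60) and miR-92a-3p (0.19 and -0.19). Higher by a log2 ratio of 0.322 or more at both exposures were 27 of the 231, miR-221-3p included. Among the abundant ones these were miR-221-3p, miR-199a-3p and miR-29a-3p.

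The balance of the guide arms needs no scaling between libraries. Per count of miR-222-3p, the control held 4.88 counts of miR-221-3p (4.73 to 5.04), the 3 min library 5.26 (5.11 to 5.41) and the 5 min library 9.19 (8.79 to 9.60). The control and 3 min ratios were close, with a 1.08-fold difference (1.03 to 1.12), and the 5 min library stood apart. Its ratio was 1.88-fold that of the control (1.78 to 1.99) and 1.75-fold that of the 3 min library (1.66 to 1.84). The passenger arms shifted the same way at 5 min, with a 1.48-fold higher ratio of miR-221-5p to miR-222-5p (1.08 to 2.04); after 3 min that ratio was 1.11-fold that of control, with an interval of 0.880 to 1.40 that included 1.

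Other neighbouring hairpins gave a measure of how far such balances moved. Using the most abundant arm that comes from a single hairpin, 16 other pairs within 10 kb on 1 strand could be compared, and 50.0% of them differed from control by a log2 change of 0.322 or more in either direction at 5 min, 43.8% at 3 min and 43.8% between 5 and 3 min. The shift of MIR221 against MIR222, a log2 change of 0.91 at 5 min (0.83 to 0.99), was exceeded by 3 pairs. These were MIR29A with MIR29B1 at 1.84 (0.85 to 2.95), MIR17 with MIR18A at 1.12 (0.18 to 2.13) and MIR19A with MIR20A at -0.997 (-1.61 to -0.40), each with an arm of 11 to 38 counts in the 5 min library. All 3, like some others of the 16, set a 5p arm against a 3p arm, while the cluster's pair sets 3p against 3p. The arms were miR-29a-3p with miR-29b-1-5p, miR-17-5p with miR-18a-3p and miR-19a-3p with miR-20a-5p. For the MIR29A pair, 3p arms had 5 min log2 ratios to control of 0.69 (miR-29a-3p) and 0.26 (miR-29b-3p, 0.01 to 0.50). However, miR-29b-3p comes from more than 1 hairpin, so its value is not that of MIR29B1 alone and falls outside the single-hairpin rule. The 5p arms of the MIR17 pair had 0.32 (miR-17-5p, 0.11 to 0.52) and -0.05 (miR-18a-5p, -1.04 to 0.88). The value of miR-18a-5p rests on 28 counts in the control and 16 at 5 min. Of the 5 other pairs whose counts were all at least 1000, 0 exceeded it, and the farthest had a log2 change of 0.58 in size (MIRLET7E with MIR125A). The minimum of 1000 counts was set after the values were seen, and some of these pairs share a hairpin.

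**Figure D3:**
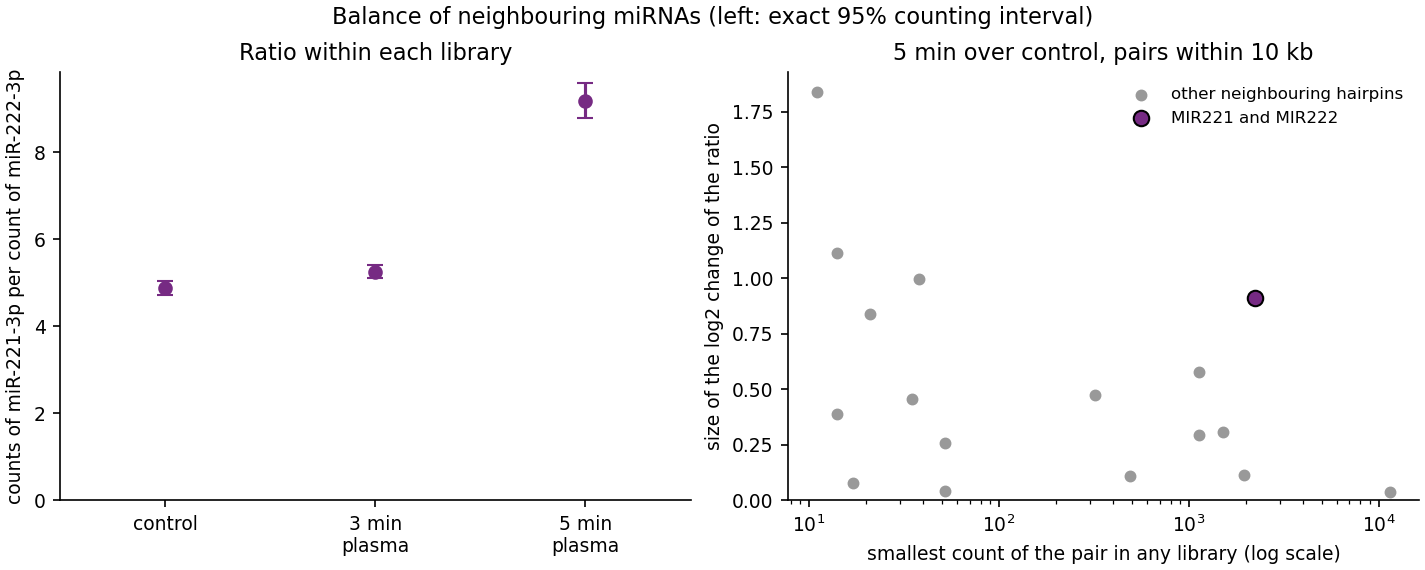
Left, counts of miR-221-3p per count of miR-222-3p (y axis) in each library (x axis), with exact 95% counting intervals; right, size of the log2 change of the ratio at 5 min over control (y axis) against the smallest count of the pair in any library (x axis, log scale) for 17 pairs of neighbouring hairpins. The ratio stands at 4.88, 5.26 and 9.19, and its change is the highest among pairs with at least 1000 counts.

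Because the guide arms share a seed, their counts were also summed. Together they took 2.67% of the control library (2.63 to 2.70), 3.66% at 3 min (3.62 to 3.70) and 3.67% at 5 min (3.62 to 3.72). Scaled, the sum was 1.39 times the control level at 3 min (1.36 to 1.41) and 1.37 times at 5 min (1.34 to 1.39). Between the plasma libraries the sum differed by a log2 ratio of -0.02, with a fold of 0.986, although miR-222-3p alone was 1.65-fold lower. Most summed counts were miR-221-3p, 29736 of 35394 at 3 min and 20382 of 22601 at 5 min, so the sum mainly follows that arm. The sum is one of reads and not of molecules.

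The balance within each hairpin also differed between libraries. Of all MIR221 counts, the 5p arm held 2.83% in the control (2.62 to 3.05), 2.33% at 3 min (2.17 to 2.51) and 1.65% at 5 min (1.48 to 1.83), with no overlap between the 3 intervals. The odds of 5p to 3p were 1.22-fold below control at 3 min (1.09 to 1.36) and 1.73-fold below it at 5 min (1.52 to 1.98). For MIR222 the 5p arm held 3.95% (3.43 to 4.53), 3.17% (2.73 to 3.65) and 2.93% (2.28 to 3.71). Its intervals overlapped between neighbouring libraries, and its odds were 1.26-fold below control at 3 min (1.02 to 1.55) and 1.36-fold below at 5 min (1.02 to 1.84).

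Arm odds of other hairpins moved in both directions. Of 78 other hairpins with at least 20 counts over both arms in each library and no arm at 0 in the libraries compared, 29.5% had 5p odds lower by a log2 change of 0.322 or more at 3 min and 25.6% higher by that size. After 5 min these were 24.3% and 32.4% of 74. The log2 change of MIR221 at 5 min, -0.79 (-0.99 to -0.60), was exceeded downward by 9 of the 74, and that of MIR222, -0.45 (-0.88 to -0.03), by 14. In those 9 hairpins the minor arm had 1 to 61 counts in the 5 min library, against 342 for miR-221-5p. Well-counted hairpins just short of MIR221 also moved downward at 5 min. These were miR-27a, at -0.71 (-0.86 to -0.57) with 559 counts of its 5p arm, and miR-140, at -0.62 (-0.70 to -0.55) with 2406. Among others with more 3p than 5p counts in the control, the odds of the minor arm were lower by that size in 12 of 34 and higher in 5 at 3 min, with a median log2 change of -0.16. At 5 min they were lower in 10 of 32 and higher in 10, with a median of 0.13.

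**Figure D4:**
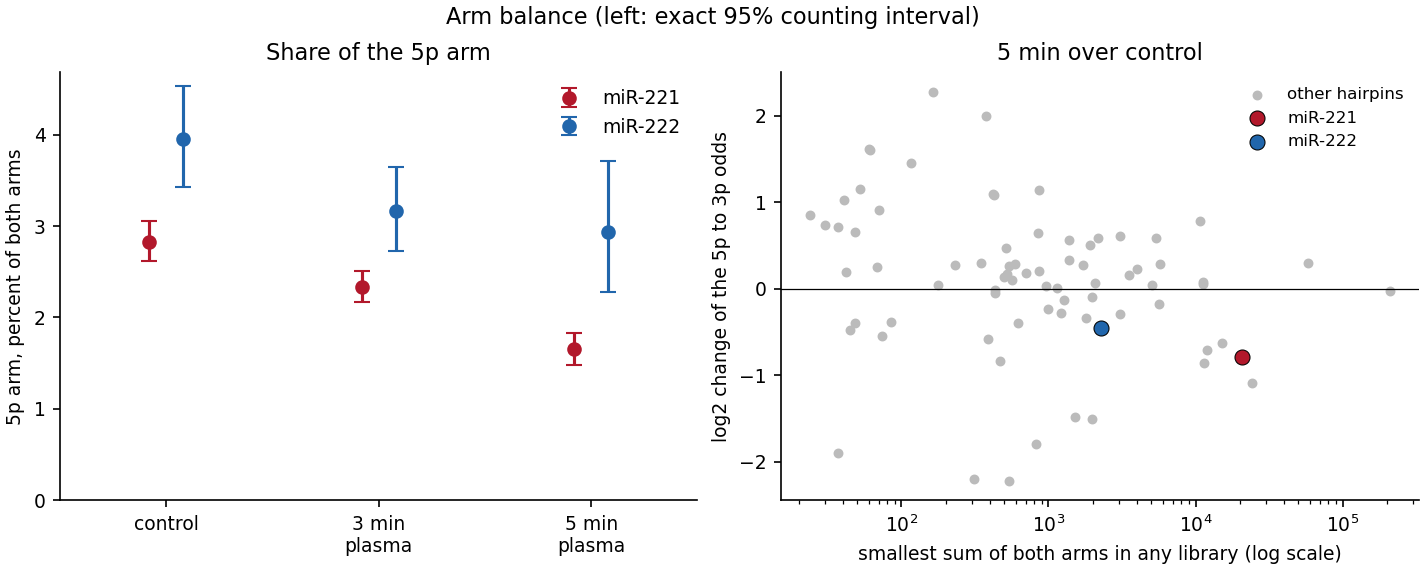
Left, 5p arm as percent of both arms (y axis, from 0) for each hairpin and library (x axis), with exact 95% counting intervals; right, log2 change of the 5p to 3p odds at 5 min over control (y axis) against the smallest sum of both arms in any library (x axis, log scale), 1 point per hairpin. The 5p share of miR-221 goes from 2.83% to 1.65%, and both hairpins lie below 0 on the right.

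Likeness was measured as the distance between pairs of log2 ratios to control (3 min and 5 min, from 3 libraries) among the 57 other abundant miRNAs. Nearest to miR-221-3p were miR-199a-3p (distance 0.18, log2 ratios 0.33 and 0.48), miR-29a-3p (0.18), miR-31-5p (0.20), miR-146a-5p (0.24) and miR-199b-3p (0.26). miR-199a-3p and miR-199b-3p have the same mature sequence and can share reads. miR-222-3p was the 34th nearest to its partner, at 0.92. Nearest to miR-222-3p were miR-92a-3p of the miR-17 cluster (0.24, log2 ratios 0.19 and -0.19), the pigment-cell miR-204-5p (0.30), the neural miR-128-3p (0.31), miR-450a-5p (0.36) and let-7b-5p (0.38).

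**Figure D5:**
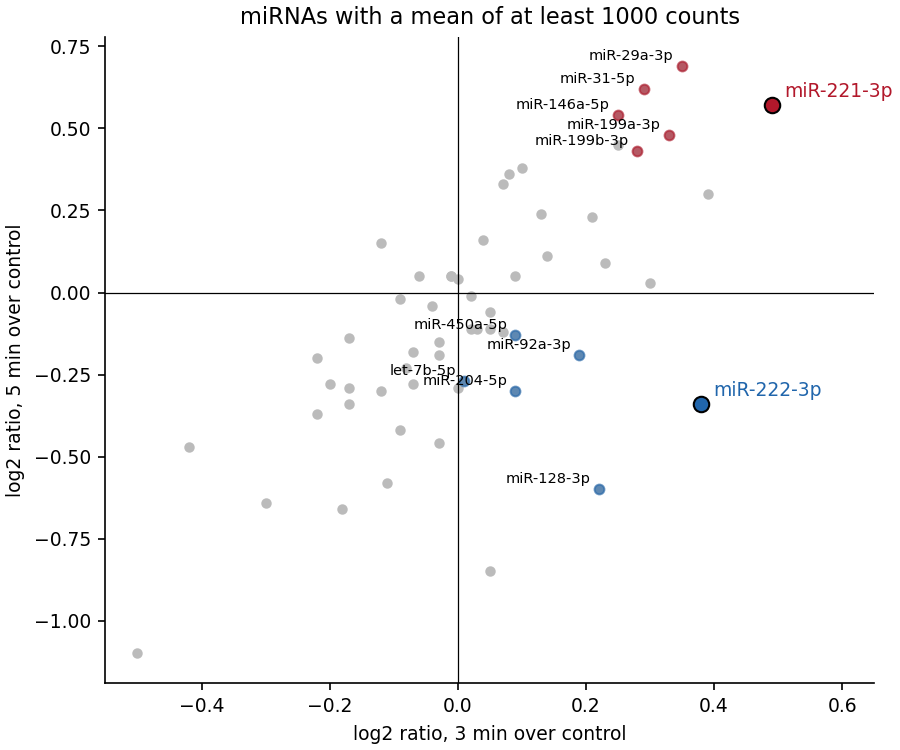
log2 ratio to control after 5 min (y axis) against that after 3 min (x axis) for the 58 abundant miRNAs; colours mark the guide arms and the 5 miRNAs nearest to each. miR-221-3p lies at 0.49 and 0.57, miR-222-3p at 0.38 and -0.34.

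miR-221-3p and miR-222-3p are also abundant in endothelial and fibroblast cells, whose markers were summed. The 5 fibroblast markers summed to 4171, 5232 and 5830 scaled CPM in control, 3 min and 5 min; all 5 had counts, mostly from miR-199a-3p, and miR-145-5p had 1, 2 and 0 counts. Of the 4 fibroblast markers past the count filter, 2 were higher by a log2 ratio of 0.322 or more at 3 min and 3 at 5 min, beside 18.2% and 28.1% of all 231 miRNAs. The 3 at 5 min were all miR-199 arms (miR-199a-5p, miR-199a-3p and miR-199b-5p) and not independent. miR-143-3p was at 0.23 at 5 min, with an interval of -0.28 to 0.72 that included 0. The endothelial miR-126-3p and miR-126-5p summed to 313, 341 and 375 scaled CPM. The 7 blood markers summed to 16.3, 21.9 and 22.6 scaled CPM (17, 21 and 14 counts), with 1 at 0 throughout. The 6 epithelial markers summed to 14.3, 25 and 64.4 scaled CPM (15, 24 and 40 counts), with 1 at 0 throughout. The melanocytic sum was 2616, 2746 and 2130 scaled CPM. The part of these marker levels in the values of the cluster was not tested.

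Other miRNAs reported to act on the targets of the cluster were also counted. Of 4 CDKN1B-linked miRNAs past the filter, 0 were higher by a log2 ratio of 0.322 or more at 3 min and 1 was lower; at 5 min 1 was higher and 0 lower. Over all 231 miRNAs, 18.2% were higher and 10.8% lower at 3 min, and 28.1% and 21.2% at 5 min; with so few members these counts do not stand apart from those shares. miR-148a-3p was the lower one at 3 min (-1.21, on 17 counts against 43) and miR-181a-5p the higher one at 5 min (0.63). The list medians were -0.03 at 3 min and 0.15 at 5 min, beside 0.05 over all miRNAs at each. The 4 KIT-linked miRNAs were all below the filter; the most abundant, miR-34a-5p, had 17, 21 and 18 counts.

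Of 11 melanoma and melanocyte miRNAs past the filter, 0 were higher by that size and 1 was lower at 3 min (miR-148a-3p), and 2 were higher and 0 lower at 5 min (miR-30b-5p at a log2 ratio of 0.68 and miR-146a-5p at 0.54). The list's medians were 0.02 and -0.01. The shares over all 231 miRNAs were 18.2% higher and 10.8% lower at 3 min, and 28.1% and 21.2% at 5 min. Other miRNAs of the short arm of the X chromosome, where the cluster lies, had 7 members past the filter. Of these 1 was higher by that size at 3 min (miR-501-3p, 0.44) and 3 were at 5 min (miR-532-3p at 0.85, miR-362-3p at 0.82 and miR-501-3p at 0.45), with 0 lower at either exposure and medians of 0.05 and 0.28. The 1 of 7 at 3 min is near the 18.2% of all 231 miRNAs, and the 3 of 7 at 5 min stand beside 28.1%. The 3 named had 18 to 61 counts in each library. At 5 min the intervals of miR-362-3p (-0.11 to 1.75) and miR-501-3p (-0.29 to 1.18) included 0, and that of miR-532-3p (0.31 to 1.40) did not. The 3 min interval of miR-501-3p, -0.22 to 1.11, also included 0. MIR532 and MIR362 lie 5725 bases apart, so their values may not be independent.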

How the data were processed

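The files deposited by the authors hold raw read counts, 1 whole number per mature miRNA and library, from NEBNext small-RNA libraries of Trizol-extracted RNA, per the labels' protocols. Bowtie2, bedtools and edgeR are named in the submitters' processing notes; versions, build, annotation, trimming and the handling of strand and multi-mapping reads were not given in the sources used here. Intervals cover counting error of reads only, because each group has 1 library and the counts hold no molecular identifiers.

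Scaling used TMM (edgeR 4.0.16, R 4.3.3) over 231 miRNAs averaging 20 counts or more; DESeq2 1.42.0 size factors and other totals were alternatives. Ratios carry exact Clopper-Pearson 95% intervals from the split of counts, and changes of a within-library ratio carry exact conditional intervals of the odds ratio (scipy 1.17.1, Python 3.11.15). The code for ratios of scaled counts and their intervals was tested on simulated data, and that for odds ratios was not. Members and lists were counted past a log2 ratio of 0.322 in size, with 1.5-fold as the stricter alternative. Named miRNAs were the members, miRNAs with a member's seed, up to 4 members of each of 4 lists past that size (otherwise the most abundant), the 5 nearest in pattern, and the 3 hairpin pairs with the largest change. Cell type markers from the fixed lists were named beside these. The names miR-139-5p, miR-29b-3p, miR-18a-5p, miR-27a, miR-140 and the pair MIRLET7E with MIR125A were added after their values were seen. Members, lists and the fold were chosen with earlier results of these data known. The groups have 1 library each, so no test was made. 1 further list is not reported here.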

Additional observations from a re-analysis of the deposited data

Results flagged for a closer look

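miR-222-3p had a log2 ratio to control of 0.38 after 3 min and -0.34 after 5 min, so the single library of each exposure lay on the opposite side of control. The difference between these exposures was not tested, and both ratios share the control library.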

How the results depend on the processing

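No paired analysis was possible because each group has 1 library. Depth limits miR-222-5p most, with 67 counts in the 5 min library. With TMM over all listed miRNAs the log2 ratio of miR-221-3p was 0.43 at 3 min, 0.40 at 5 min and, with the sign reversed, -0.03 between 5 and 3 min; that of miR-222-3p was 0.32, -0.51 and -0.84; and that of miR-222-5p at 3 min was -0.01, reversed from 0.05. These shifts follow the shift of the median. DESeq2 size factors gave miR-221-3p 0.46 at 3 min and 0.54 at 5 min. The other alternatives left the member ratios within their counting intervals, and both guide arms kept their direction against control and their side of a log2 ratio of 0.322 in size in all 5 scalings. Summing both arms left the log2 change of the miR-221 to miR-222 ratio at 5 min at 0.91. Counts of miRNAs past that size moved with the setting. Without a filter and with TMM over all listed miRNAs, a change of both set and scaling, 295 of 810 were higher and 249 lower at 3 min, 424 and 295 of 857 at 5 min, and 413 and 281 of 862 between 5 and 3 min. Over the 231 filtered miRNAs in the main scaling, the counts at 1.5-fold, in the same order, were 16 and 12, 40 and 27, and 30 and 20. Among the 58 abundant miRNAs (means of 1000 or more), those past 0.322 were 5 and 2, 10 and 12, and 2 and 11. With a minimum of 100 counts over both arms, other hairpins with higher 5p odds numbered 13 of 59 at 3 min and 15 of 58 at 5 min, against 20 of 78 and 24 of 74, so fewer hairpins entered.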
